A study of Homo sapiens with 4 samples.

Results

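H9 is an established human embryonic stem cell line. The comparison described here sets the array of its late passage group P4 (passages in the 300s) against the array of group P2 (passages in the 100s), which are 2 of the 4 arrays of the study. The other arrays, P3 (passages in the 200s) and P1 (passages in the 40s), were used only to show where a gene stood outside the pair. No treatment, genotype or sorted population was named for any group, all 4 are 1 line, and each group was a range of passages read once on 1 Illumina bead array. There were no replicates, so every difference compares 2 arrays, no p-value can be given, and passage cannot be told apart from culture batch or array. Of 19951 named genes, 11763 reached the detection limit of 38.4 intensity units on P4 or P2, 10985 of them on both, 441 on P4 only and 337 on P2 only. Intensities are linear fluorescence values of the brightest probe of a gene, and differences are log2(P4) minus log2(P2) after values under the limit were set to the limit. A fold that rests on a value under the limit is a lower bound and is written "at least". A gene detected on only 1 of the 2 arrays can only read higher on that array, whatever list it belongs to.

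Human embryonic stem cells divide without a fixed limit while a network around POU5F1, SOX2 and NANOG keeps them undifferentiated. Long culture is known to favour cells that have gained part of chromosome 20q and to shift DNA methylation at imprinted and other genes. Metallothioneins are small cysteine-rich proteins that bind zinc, copper and cadmium. They are switched on by the zinc-sensing factor MTF1 through short metal response elements near the start of transcription. Interferon-stimulated genes are switched on by STAT and IRF factors through an interferon-stimulated response element, and undifferentiated stem cells are known to respond weakly to interferon.

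The promoters of members of these 2 families are shown because both families hold members among the largest differences of the comparison. The sequences are RefSeq promoters of GRCh38.p14, all on the plus strand, from 250 bases before to 50 bases after the start. Capitals mark matches on either strand to the metal response element core, TGCACNC or TGCGCNC, in the metallothioneins, and to the interferon response element core, TTTCNNTTTC, in the interferon genes. Overlapping matches run together as 1 stretch of capitals.
MT1H (chr16:56669564-56669863): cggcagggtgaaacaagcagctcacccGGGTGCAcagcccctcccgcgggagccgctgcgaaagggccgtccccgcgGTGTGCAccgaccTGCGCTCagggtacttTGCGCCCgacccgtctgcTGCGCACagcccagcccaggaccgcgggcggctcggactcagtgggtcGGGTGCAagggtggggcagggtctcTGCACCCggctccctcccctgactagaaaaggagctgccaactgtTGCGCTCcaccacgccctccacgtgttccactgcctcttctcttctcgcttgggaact
MT1X (chr16:56682220-56682519): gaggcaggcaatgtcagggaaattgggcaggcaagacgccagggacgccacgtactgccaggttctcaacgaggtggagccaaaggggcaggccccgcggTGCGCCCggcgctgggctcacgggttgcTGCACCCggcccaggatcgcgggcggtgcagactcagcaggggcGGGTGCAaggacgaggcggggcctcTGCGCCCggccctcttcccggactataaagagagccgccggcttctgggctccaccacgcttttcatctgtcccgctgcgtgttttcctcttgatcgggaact
MT2A (chr16:56608334-56608633): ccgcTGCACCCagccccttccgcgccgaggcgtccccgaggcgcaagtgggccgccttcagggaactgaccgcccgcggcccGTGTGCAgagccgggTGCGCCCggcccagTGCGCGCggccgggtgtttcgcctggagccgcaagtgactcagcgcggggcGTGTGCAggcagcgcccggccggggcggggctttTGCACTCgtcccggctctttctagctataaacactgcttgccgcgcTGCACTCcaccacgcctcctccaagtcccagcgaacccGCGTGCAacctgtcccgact
IFIT1 (chr10:89392373-89392672): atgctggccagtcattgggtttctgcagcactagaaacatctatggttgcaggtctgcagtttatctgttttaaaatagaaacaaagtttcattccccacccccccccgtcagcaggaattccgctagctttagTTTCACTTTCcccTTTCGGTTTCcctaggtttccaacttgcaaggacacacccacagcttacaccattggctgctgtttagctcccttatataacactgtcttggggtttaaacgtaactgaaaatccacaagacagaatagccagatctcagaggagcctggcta
ISG15 (chr1:1013247-1013546): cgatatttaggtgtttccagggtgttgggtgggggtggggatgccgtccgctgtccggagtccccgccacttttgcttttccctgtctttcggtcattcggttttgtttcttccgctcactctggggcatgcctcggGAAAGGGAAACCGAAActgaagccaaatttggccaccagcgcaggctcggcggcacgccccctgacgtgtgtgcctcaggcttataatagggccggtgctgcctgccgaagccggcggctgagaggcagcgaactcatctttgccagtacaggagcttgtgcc
The metal response core occurred 8 times in the MT1H window, 4 times in MT1X and 8 times in MT2A, and was present in 29.6% of 35116 promoters of this length. The interferon response core occurred 2 times each in IFIT1 and ISG15 and was present in 3.57% of the promoters. A match describes the letters of the window and is not a binding site shown by these data.

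Across all genes, 275 of 11763 (2.34%) were at least 2-fold higher in P4 than in P2 and 93 (0.791%) at least 2-fold lower. The median difference was -0.02, with an SD over genes of 0.42, and 5602 genes were above 0 against 6152 below. The tail of large differences therefore leaned to P4, with 74.7% of the 2-fold genes on the higher side, while the middle of the distribution did not. In the plot of P4 against P2 levels NNAT, IFIT1 and MT1G stood far above the diagonal and CUZD1 far below it.

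**Figure D1:**
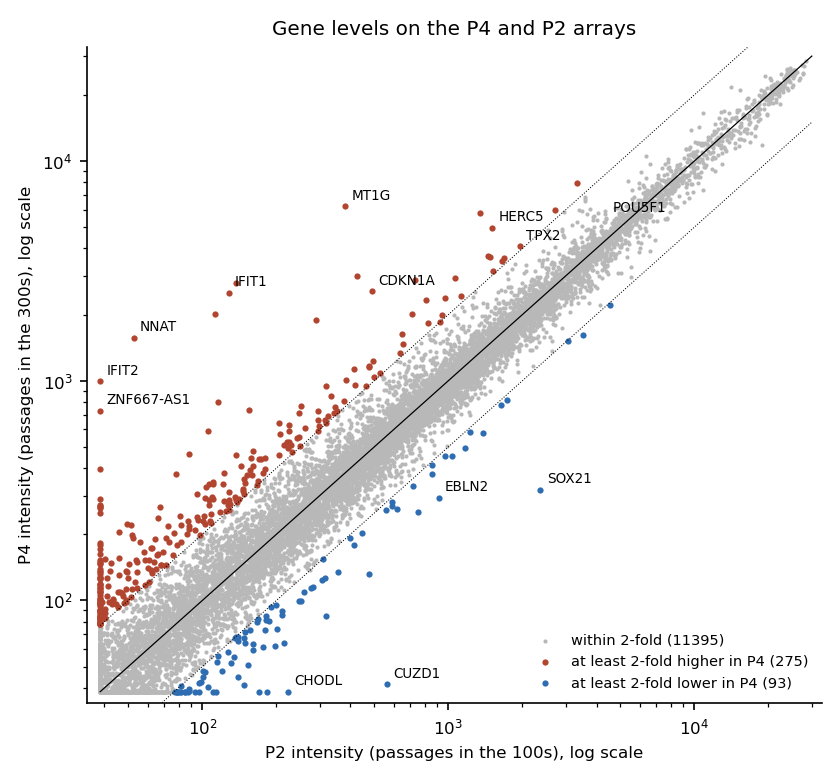
Intensity of each of the 11763 detected genes on the P4 array (vertical axis) and the P2 array (horizontal axis), both on log scales, with values under the limit drawn at the limit. The 275 genes at least 2-fold higher in P4 lie above the upper dotted line and the 93 at least 2-fold lower lie below the lower one.

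P3 against P1 is the only pair of arrays that shares neither P4 nor P2, and it was set beside the comparison after its values were seen. In that pair 231 of 11844 genes (1.95%) stood at least 2-fold higher in P3 and 189 (1.6%) stood lower by as much. Of the 275 genes higher in P4 than in P2, 36 were also at least 2-fold higher in P3 than in P1 and 30 were at least 2-fold lower, which is 13.1% and 10.9% of that list and 15.6% and 15.9% of the P3 lists. Over 10642 genes above the limit on all 4 arrays, Pearson's r between the 2 differences was 0.02, a description across genes, which are not independent replicates. Sorted by whether P3 and P1 read nearer to P4 or to P2, a grouping also made after the values were seen, 96 of the 275 higher genes had P2 apart from the other arrays. P4 stood apart for 66, P3 went with P4 and P1 with P2 for 62, and P1 went with P4 and P3 with P2 for 51. Among the 93 lower genes these numbers were 47, 17, 19 and 10. By sign alone, 148 of the 258 higher genes detected on P3 or P1 were above 0 in P3 minus P1 and 110 were below.

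**Figure D2:**
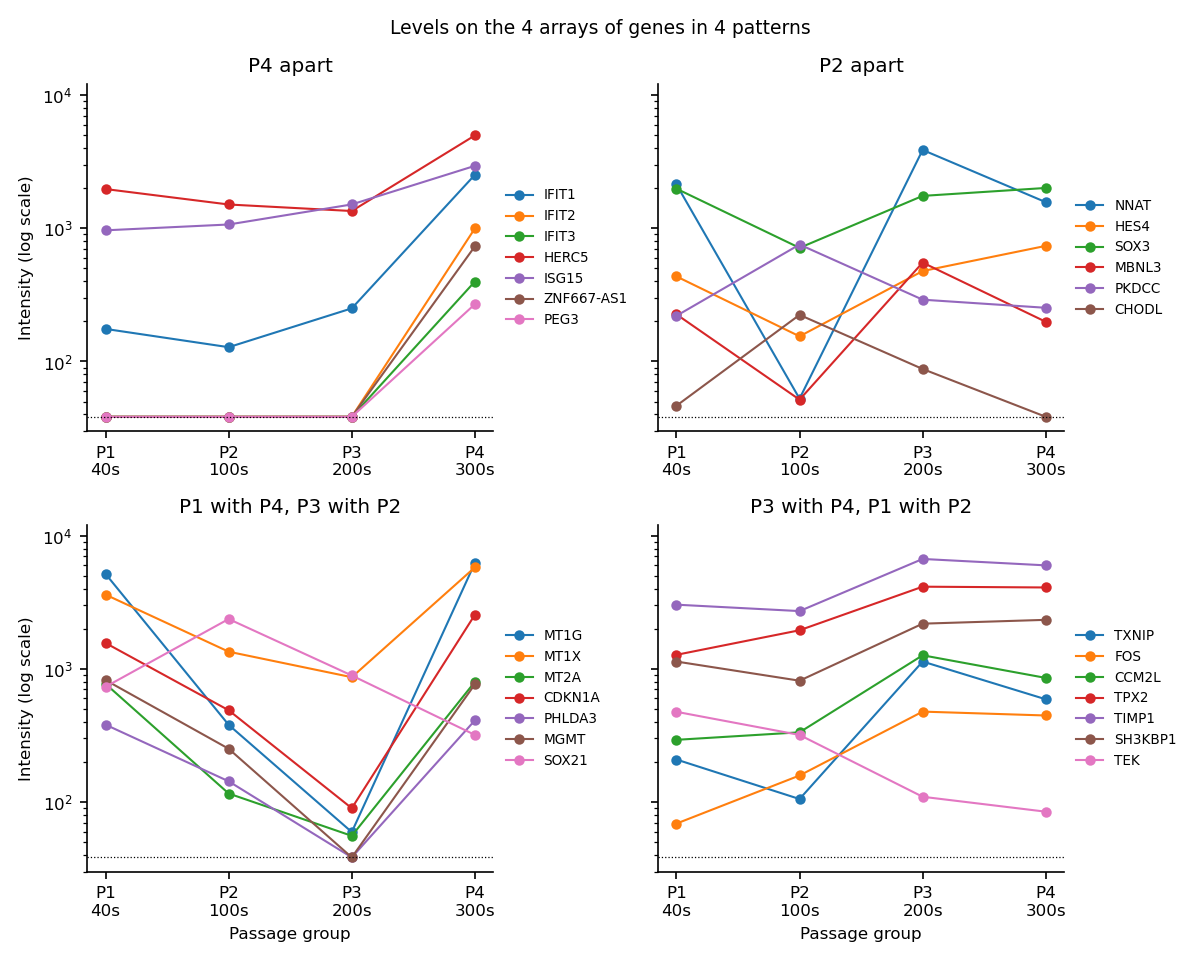
Intensity on a log scale (vertical axis) of example genes on the P1, P2, P3 and P4 arrays, 1 array per group, in 4 panels by pattern. The dotted line is the detection limit of 38.4, at which lower values are drawn, and only the panel with P3 beside P4 and P1 beside P2 splits later from earlier arrays.

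Metallothioneins had the largest difference of any gene list described here. All 7 detected members of 10 on the array were higher in P4, 6 of them at least 2-fold. The median difference was 2.81 against -0.02 for all genes, of which 2.34% were at least 2-fold higher. MT1G read 6232 in P4, against 379.7 in P2, and was 16.4-fold higher. MT1E read 2771 in P4, against 136.8 in P2, and was 20.3-fold higher. MT1H read 2018 in P4, against 112.4 in P2, and was 17.96-fold higher. These 3 genes encode metal-binding proteins of the MT1 cluster on chromosome 16, and all 3 read lower in P2 than in both P4 and P1. MT1F, another MT1 isoform, read 2989 in P4, against 425.1 in P2, and was 7.03-fold higher. MT2A, the main human metallothionein in many tissues, read 799.1 in P4, against 115.9 in P2, and was 6.90-fold higher. MT1X read 5779 in P4, against 1345 in P2, and was 4.30-fold higher. MT1M, the seventh member, read 75.6 in P4 and was under the limit in P2, at least 1.97-fold higher.

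The same genes went the opposite way in the other pair of arrays. All 7 were at least 2-fold lower in P3 than in P1, with a median of -5.12, where 1.6% of all genes were as much lower. MT1G read 59.5 in P3, against 5158 in P1, and MT2A read 55.7 in P3, against 770.9 in P1. Each metallothionein read within 2-fold of its P1 level in P4, as with MT1H (2597 in P1) and MT1F (2242 in P1), both of which were under the limit in P3. Metallothioneins are near-identical copies, so their probes may share signal and the 7 are not independent readings. The dimmer MT1H probe read 46.9 in P4 and was under the limit in P2, so it gives only a small bound of 0.29. The other genes of zinc and copper handling had no common direction. Of 22 detected transporters, chaperones and regulators on that list 8 were above 0 and 14 below, with a median of -0.07. MTF1, the zinc-sensing activator, read 308.0 in P4, against 328.6 in P2. SLC30A1, a zinc exporter that is also an MTF1 target, read 207.3 in P4, against 163.5 in P2. SLC39A4, an intestinal-type zinc importer, was the 1 list member past 2-fold, with 125.7 in P4 and P2 under the limit, at least 3.27-fold higher.

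Interferon-stimulated genes split into a small group that was much higher in P4 and a majority near 0. Of 33 detected members of 43 on the array 22 were above 0, 9 were at least 2-fold higher and none was at least 2-fold lower, with a median of 0.18 and a mean of 0.70. By comparison, the share above 0 in the whole set of detected genes was 47.6%, with 2.34% past 2-fold upward and 0.791% downward. IFIT1, which binds RNA lacking a host cap, read 2519 in P4, against 127.9 in P2, and was 19.7-fold higher. IFIT2, its partner, read 997.0 in P4 and was under the limit in P2, at least 25.9-fold higher. IFIT3, the stabilising member of the same complex, read 398.2 in P4 and was under the limit in P2, at least 10.4-fold higher. A second IFIT3 probe read 209.6 in P4 and was likewise under the limit in P2. The IFIT genes lie side by side on chromosome 10. There the window of 15 neighbouring detected genes from ANKRD22 to PPP1R3C had a median of 0.41. In it 9 genes were above 0 and 6 at least 2-fold higher, not all of them members of the interferon list. HERC5, the ligase that attaches ISG15, read 4975 in P4, against 1508 in P2, and was 3.30-fold higher. ISG15, the ubiquitin-like modifier itself, read 2941 in P4, against 1067 in P2, and was 2.76-fold higher. MX2, a dynamin-like antiviral protein, read 243.0 in P4, against 81.3 in P2, and was 2.99-fold higher. The remaining 3 past 2-fold were IFIH1, DDX60 and OAS2. IFIH1, a sensor of double-stranded RNA, read 117.7 in P4 with P2 under the limit, at least 3.06-fold higher. DDX60, a helicase of the same response, read 134.7 in P4, against 49.5 in P2, and OAS2, an oligoadenylate synthetase, 83.8 in P4 with P2 under the limit.

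For all 9 of these genes P4 stood apart from the other 3 arrays. IFIT1 read 250.4 in P3 and 175.5 in P1, IFIT2 and IFIT3 were under the limit on both, and HERC5 read 1347 in P3 and 1969 in P1. In P3 against P1 the list had a median of 0.01. Other members differed little. IFITM3, an antiviral membrane protein, read 8188 in P4, against 8961 in P2, and MX1 read 903.0 in P4, against 674.1 in P2. IRF9, the DNA-binding part of the interferon-activated complex, read 424.7 in P4, against 519.5 in P2. The interferon gene IFNB1, the chemokine CXCL10 and the RNA sensor RIGI were under the limit on both arrays. Genes of HLA class I and antigen presentation had a median of 0.13 over 16 detected members, with none past 2-fold in either direction. B2M, the shared light chain of class I molecules, read 2680 in P4, against 1780 in P2.

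Targets of the tumour suppressor p53 were mostly higher in P4. Of 27 detected members 23 were above 0, with a median of 0.44, and 3 were at least 2-fold higher. The shares of all genes were 47.6% above 0 and 2.34% at least 2-fold higher. CDKN1A, which encodes the cell cycle inhibitor p21, read 2546 in P4, against 488.6 in P2, and was 5.21-fold higher. PHLDA3, an inhibitor of AKT, read 410.4 in P4, against 143.1 in P2, and was 2.87-fold higher. SESN1, a stress-induced inhibitor of the mTOR pathway, read 730.8 in P4, against 353.5 in P2, and was 2.07-fold higher. Close behind stood the ribonucleotide reductase subunit RRM2B at 1.93-fold and SPATA18, a factor of mitochondrial quality control, at 1.88-fold. GDF15, a stress-induced secreted factor that is also a p53 target, read 265.5 in P4 and was just under the limit in P2, at least 6.91-fold higher. The list was not uniform. TP53I3, a quinone oxidoreductase, read 335.8 in P4, against 607.8 in P2, and the apoptosis effector BAX read 2043 in P4, against 1901 in P2. MDM2, the p53 ligase, was under the limit on both arrays.

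As with the metallothioneins, the other pair of arrays went the opposite way. The p53 list had a median of -0.62 in P3 against P1. In P3, 7 of 27 members were at least 2-fold lower, against 1.6% of all genes. CDKN1A read 89.9 in P3, against 1562 in P1, and SESN1 read 212.9 in P3, against 515.7 in P1. PHLDA3 and GDF15 were under the limit in P3 and read 380.8 and 198.4 in P1. MGMT, the enzyme that removes alkyl groups from guanine, was 3.05-fold higher, with 765.5 in P4, against 251.2 in P2. It was under the limit in P3 and read 822.9 in P1. BBS9, a component of the ciliary BBSome, read 1890 in P4, against 290.3 in P2, with 215.5 in P3 and 974.2 in P1. Its second probe read 161.1 in P4, against 70.2 in P2, a difference of 1.20 where the brighter probe gave 2.70.

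NNAT, an imprinted gene for the membrane proteolipid neuronatin, had the largest difference of all genes above the limit on both arrays. It read 1569 in P4, against 52.5 in P2, and was 29.9-fold higher. P3 read 3872 and P1 read 2130, so P2 was the array that stood apart. Its dimmer probe read 51.1 in P4 and was under the limit in P2. PEG3, a paternally expressed zinc finger gene on chromosome 19, showed another picture, with 269.1 in P4 and all other arrays under the limit, at least 7.003-fold higher than in P2. The genes ZNF667 and ZNF667-AS1 on the same chromosome also read above the limit on P4 alone. ZNF667-AS1, an antisense transcript, read 731.0 and was at least 19.03-fold higher than in P2. ZNF667, a zinc finger gene that shares its locus with it, read 251.2 and was at least 6.54-fold higher. Whether probes of these overlapping genes share signal was not tested. CDKN1C, an imprinted inhibitor of cyclin-dependent kinases, read 393.9 in P4, against 156.3 in P2, and was 2.52-fold higher, with 414.4 in P3 and 328.2 in P1. The other imprinted genes lay around 0. The list had 26 detected members, a median of 0.03 and 3 members at least 2-fold higher, where 2.34% of all genes were. SNRPN read 11756 in P4, against 11591 in P2, and PEG10 read 470.5 in P4, against 383.4 in P2. DLK1, a Notch-related growth factor, was the lowest member with 74.6 in P4, against 135.6 in P2.

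Among zinc finger genes with a ZNF symbol, 9 of 320 detected were at least 2-fold higher and 1 was lower, with a median of -0.03. These shares are near those over all genes (2.34% and 0.791%), so the zinc finger genes named here are single genes. ZNF439 read 146.1 in P4 with P2 under the limit, at least 3.80-fold higher. ZNF502 read 155.0 in P4, against 40.2 in P2, and was 3.85-fold higher. ZNF454 read 118.6 in P4 with P2 under the limit, at least 3.09-fold higher. The 1 lower gene was ZNF177, at 131.4 in P4, against 477.0 in P2. Clustered protocadherins, neuronal adhesion genes whose promoters are chosen singly in each cell, had 4 of 15 detected members at least 2-fold higher, none lower and a median of 0.27. PCDHA2 read 136.6 in P4 with P2 under the limit, at least 3.56-fold higher. PCDHB3 read 156.1 in P4, against 46.0 in P2, and was 3.39-fold higher. PCDHB12 and PCDHA3 were 2.52-fold and at least 2.31-fold higher. For all 4 of these P4 stood apart, and 38 of the 53 cluster members on the array were under the limit on both arrays. These genes are close paralogs whose probes may share signal. PCDHA2, PCDHA3 and PCDHB16, another member, were detected on P4 alone, so they could only lie above 0.

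**Figure D3:**
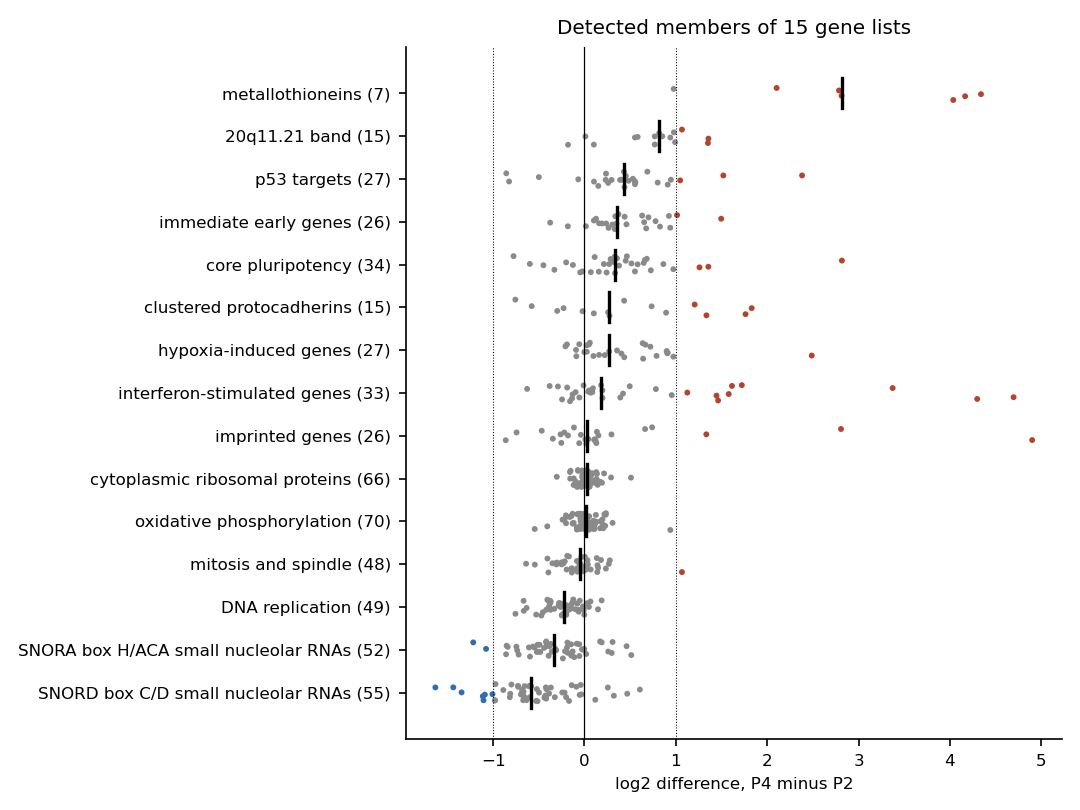
Differences of P4 minus P2 (log2, horizontal axis) for the detected members of 15 gene lists, with the number of detected members in parentheses. Each point is 1 gene, the black bars are medians, and the dotted lines mark 2-fold; metallothioneins lie furthest to the right (median 2.81) and box C/D small nucleolar RNAs furthest to the left (-0.58).

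Genes of the X chromosome were more often at least 2-fold higher in P4 than genes of any single other chromosome. On X, 38 of 433 detected genes (8.78%) reached 2-fold higher in P4 and 1 (0.231%) 2-fold lower, against 237 of 11318 (2.09%) higher and 92 (0.813%) lower on chromosomes 1 to 22. Among the other chromosomes the share higher ran from 0.525% on chromosome 15 to 3.1% on chromosome 4. Genes of the X-inactivation centre are left out of these counts. P3 against P1 had a like excess, with 10.7% of the X genes of the comparison at least 2-fold higher in P3, against 1.64% on chromosomes 1 to 22. The genes were partly different. Of the 38 X genes higher in P4 than in P2, 11 were among the 45 at least 2-fold higher in P3 than in P1, which is 28.9% of the first list and 24.4% of the second. Because the chromosome was singled out after its values were seen, these shares describe the arrays.

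**Figure D4:**
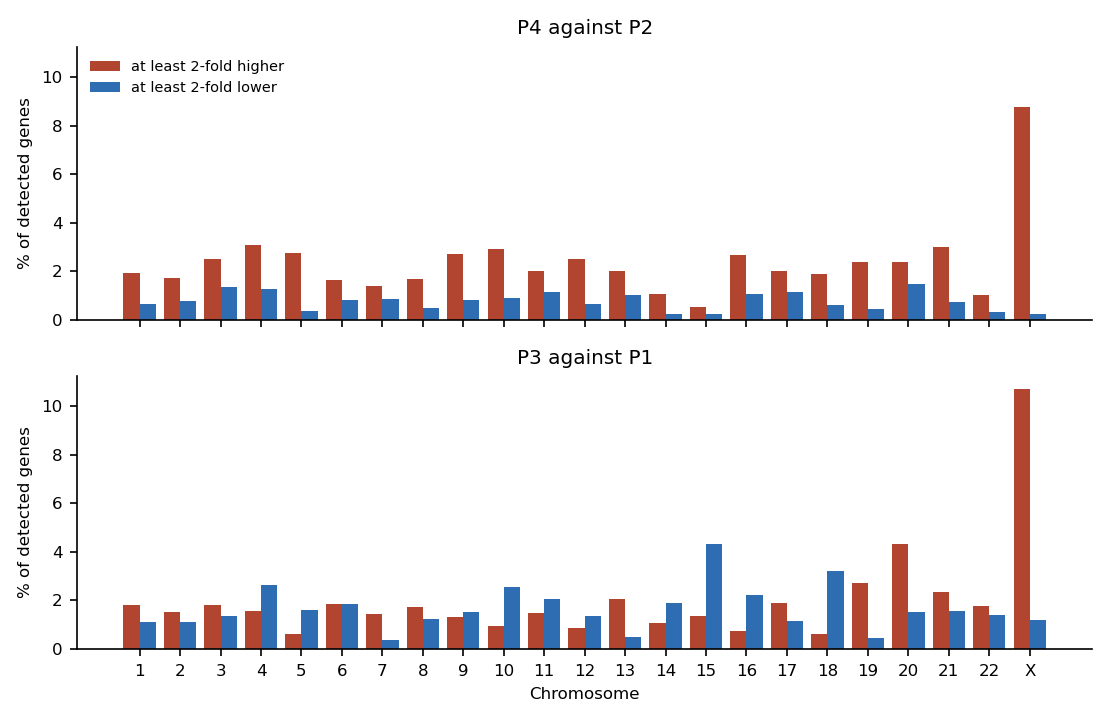
Share of detected genes (%, vertical axis) at least 2-fold higher or lower on each chromosome, for P4 against P2 in the upper panel and P3 against P1 in the lower. Chromosome X reaches 8.78% higher in P4 and 10.7% higher in P3, and no other chromosome exceeds 4.32% higher in either pair.

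Many of the X genes that differed lay in runs, while others stood alone, as with MTM1 at 1.38 beside MTMR1 at 0.07. Of 11429 windows of 15 neighbouring detected genes, 88 had a median of at least 0.5. Of those 72 were on X, 13 on chromosome 20 and 3 elsewhere. Neighbouring windows overlap and share most of their genes, so these are not counts of separate runs. The genes named from these windows were picked with their values in view. The strongest run, from NHS to MBTPS2, had a median of 1.04, with 14 of 15 genes above 0 and 8 at least 2-fold higher. SH3KBP1, an adaptor for receptor endocytosis, read 2332 in P4, against 814.4 in P2, and was 2.86-fold higher. PDHA1, a subunit of pyruvate dehydrogenase, read 3499 in P4, against 1647 in P2, and was 2.12-fold higher. EIF1AX, a translation initiation factor, read 2368 in P4, against 970.9 in P2, and was 2.44-fold higher. In this run the median of P3 minus P1 was 0.06, but single genes were not all near it. SH3KBP1 stood at 0.94 in P3 minus P1, EIF1AX at 0.63, PDHA1 at 0.26 and BCLAF3, a neighbour of SH3KBP1, at 1.07.

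A run from ZNF674 to ZNF182 had a median of 0.89 with all 15 genes above 0, and there the other pair read alike, with a median of 0.94 in P3 minus P1. TIMP1, an inhibitor of matrix metalloproteinases, read 5982 in P4, against 2713 in P2, with 6682 in P3 and 3031 in P1. ELK1, a transcription factor of the serum response, read 2434 in P4, against 1128 in P2, with 2369 in P3 and 1235 in P1. NDUFB11, a subunit of respiratory complex I, read 6877 in P4, against 3585 in P2, with 7631 in P3 and 3616 in P1. Inside the run, RBM10, UBA1 and USP11 stood at 0.18, 0.01 and 0.05, so neighbours did not all share the step. Further along, the run from NUP62CL to AMMECR1 had a median of 0.82 and that from UTP14A to HS6ST2 one of 0.64. NXT2, an mRNA export factor near AMMECR1, read 443.7 in P4, against 179.0 in P2, and 478.1 in P3 and 653.7 in P1, so P2 was the low array. HS6ST2, a heparan sulfate sulfotransferase, was 4.83-fold higher at 377.0 in P4, against 78.0 in P2, and its second detected probe gave a bound of 2.80 on the log2 scale. MBNL3, a splicing regulator, read 198.5 in P4, against 51.7 in P2, and SOX3, a neural and pluripotency-associated SOX factor, read 2007 in P4, against 712.4 in P2. Both had P2 apart from the other arrays, with 552.2 and 1749 in P3. NAP1L6P, a pseudogene on X, read 263.7 in P4 and was under the limit in P2, at least 6.86-fold higher. Between the runs, genes such as POLA1 (1709 in P4, against 2252 in P2) were near or below 0.

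**Figure D5:**
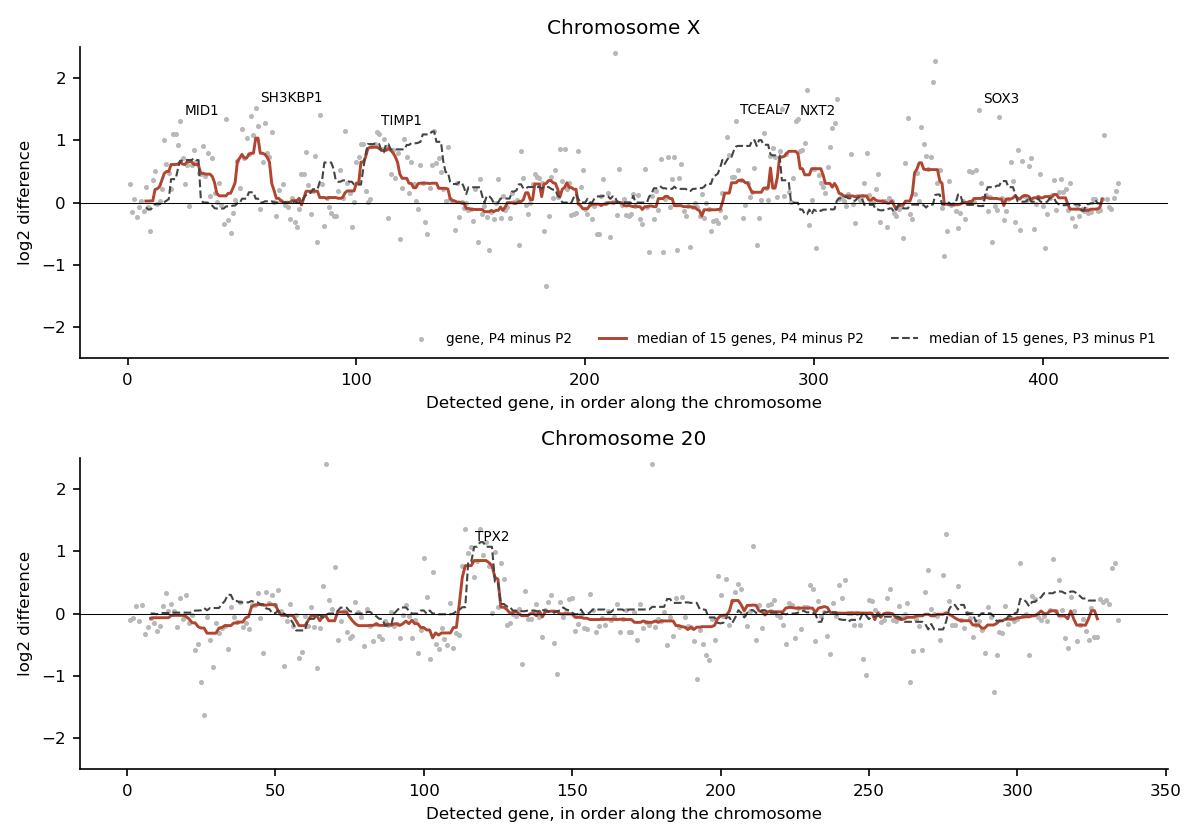
Differences (log2, vertical axis) of detected genes in order along chromosomes X and 20, with grey points for P4 minus P2 of single genes (values beyond 2.4 drawn at 2.4) and lines for medians of 15 neighbouring genes. The solid line (P4 minus P2) rises above 0.5 in several runs on X and in 1 run on chromosome 20, and the dashed line (P3 minus P1) shares some of them.

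On chromosome 20 the band 20q11.21, gains of which recur in cultured pluripotent cells, was higher in P4 than in P2 and also higher in P3 than in P1. Of its 15 detected members on the list 14 were above 0 and 3 at least 2-fold higher, with a median of 0.82, against -0.08 over 39 detected genes of the rest of the long arm. P3 minus P1 had a median of 1.07 with 8 members at least 2-fold higher, against 1.95% of all genes. In P4 minus P2, 47.6% of all genes were above 0 and 2.34% at least 2-fold higher. CCM2L, a vascular scaffold protein, read 854.8 in P4, against 333.8 in P2, and was 2.56-fold higher. TPX2, which activates Aurora A on the spindle, read 4082 in P4, against 1948 in P2, and was 2.10-fold higher, with 4137 in P3 and 1274 in P1. BCL2L1, which encodes the survival protein BCL-XL, read 5827 in P4, against 2955 in P2, and was 1.97-fold higher, with 4374 in P3 and 2468 in P1. Its second probe gave 0.89 where the brighter gave 0.98. ID1, an inhibitor of differentiation, read 3690 in P4, against 1446 in P2, and was 2.55-fold higher, with 1977 in P3 and 1927 in P1. Its second detected probe read 206.6 in P4, against 72.7 in P2, with 85.4 in P3 and 40.8 in P1. The ID1 probes thus both read higher in P4 than in P2, and they differed on P3 against P1. POFUT1 and ASXL1 inside or next to the run were at 0.01 and 0.10. DNMT3B, the de novo DNA methyltransferase of pluripotent cells, read 9680 in P4, against 6601 in P2, 1.47-fold higher. Its other detected probes gave differences of 0.44, 0.54 and 1.10. The last of these read 719.4 in P3, against 292.4 in P1, where the brightest probe gave -0.18 in P3 minus P1.

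Markers of the undifferentiated state read above the limit on both arrays, as the cell type label has it. POU5F1 read 5467 in P4, against 4379 in P2, and was 1.25-fold higher. NANOG read 1620 in P4, against 1246 in P2, and was 1.30-fold higher. SOX2 read 5132 in P4, against 5210 in P2, and the RNA-binding protein gene LIN28A read 19783 in P4, against 18847 in P2. A second SOX2 probe read 3165 in P4, against 4248 in P2, a difference of -0.42. These central factors thus stayed within 1.5-fold of each other on the 2 arrays. The core pluripotency list as a whole had 26 of 34 detected members above 0, a median of 0.33, and 3 members at least 2-fold higher. Over all genes 47.6% were above 0 and 2.34% at least 2-fold higher. UTF1, a chromatin factor of undifferentiated cells, read 271.0 in P4 and was under the limit in P2, at least 7.05-fold higher, with 90.6 in P3 and 125.2 in P1. DPPA2, a partner of DPPA4 in chromatin regulation, read 271.1 in P4, against 105.9 in P2, and was 2.56-fold higher. GDF3, a TGF-beta ligand, read 210.8 in P4, against 88.1 in P2, and was 2.39-fold higher. NODAL, the ligand that sustains pluripotency, was 1.96-fold higher, at 272.1 in P4, against 138.6 in P2. Of the 8 members below 0, SOX15, SALL4 and TERT were the lowest, at -0.78, -0.60 and -0.45. In P3 minus P1 the list had a median of -0.14. VENTX, a homeobox gene near UTF1 on chromosome 10 named for its place in a run of high windows, read 305.7 in P4, against 95.4 in P2.

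Defining markers of other cell types were mostly under the limit on both arrays. This held for the neural genes PAX6 and SOX1, the mesoderm genes TBXT, MIXL1 and PDGFRA, the endoderm genes SOX17, FOXA2 and GATA6 and the trophoblast genes CDX2, GATA3, CGA and KRT7. It also held for the fibroblast genes COL3A1, LUM, DCN and POSTN, while others of the fibroblast and matrix list were detected, 16 of 25 above 0 and 9 below, with a median of 0.13. Of its defining collagens, COL1A1 read 943.7 in P4, against 708.4 in P2, and COL1A2 read 1725 in P4, against 1149 in P2. TIMP1 and ACTA2, a smooth muscle actin, were the 2 members at least 2-fold higher, while the laminin LAMB2 and the intermediate filament gene VIM were lower, at -0.85 and -0.42. Of the neural markers that were detected, NES, an intermediate filament of progenitors, read 3243 in P4, against 2495 in P2, DCX read 196.6 in P4, against 134.9 in P2, and STMN2 read 190.6 in P4, against 137.3 in P2. KDR, a receptor of early mesoderm, read 193.5 in P4, against 107.9 in P2. Over the mesoderm list 3 of 5 detected genes were above 0 and 2 below, namely TEK and MSX1. AFP, a marker of fetal endoderm, read 86.1 in P4, against 211.5 in P2, and was 2.46-fold lower. Of the trophoblast and amnion list 5 of 22 genes were detected, all above 0, with GABRP at 200.1 in P4, against 86.3 in P2, and IGFBP3 at 103.5 in P4, against 51.2 in P2, past 2-fold. In bulk RNA, fewer cells of a type and less RNA per cell cannot be told apart. Beside these lists, 47.6% of all genes were above 0, 2.34% at least 2-fold higher and 0.791% lower. The neural list had 27 of 44 genes detected, 19 above 0 and 8 below, and a median of 0.28, with NNAT and SOX3 at least 2-fold higher and the host transcript of miR-124, MIR124-1HG, lower at 582.3 in P4, against 1220 in P2. MEIS2 and OTX2, homeobox genes of the same list, were at -0.93 and -0.72.

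The BMP and Wnt lists had medians near 0 and a few members past 2-fold. For scale, 2.34% of the detected genes passed that threshold upward and 0.791% downward. Among 19 detected genes of BMP signalling the median was 0.00 and 3 were at least 2-fold higher, namely ID1, the inhibitory SMAD6 (219.7 in P4, against 81.7 in P2) and the ligand BMP7 (312.0 in P4, against 128.6 in P2). BMP2 read under the limit in P4, against 70.7 in P2. Among 31 Wnt genes the median was -0.09, with AXIN2, a feedback inhibitor, at 1988 in P4, against 939.5 in P2, WLS, a carrier of Wnt proteins, at 160.5 in P4, against 65.2 in P2, and WNT5B at 78.0 in P4 with P2 under the limit. Over the median of its detected probes the WLS difference was 0.36. FST, an activin-binding inhibitor, was lower at 771.7 in P4, against 1642 in P2. HES4, a Notch-related repressor, read 737.3 in P4, against 154.4 in P2, 4.78-fold higher, with 477.2 in P3 and 434.8 in P1. Immediate early genes, the first response to growth factors and stress, were nearly all above 0. This held for 24 of 26, with a median of 0.36, and for 47.6% of all genes. FOS read 446.4 in P4, against 158.2 in P2, and was 2.82-fold higher, with 477.4 in P3 and 68.9 in P1. IER5 was 2.02-fold higher, and EGR1 and ATF3 were 1.597-fold and 1.90-fold higher. TXNIP, the glucose-responsive inhibitor of thioredoxin, read 590.7 in P4, against 105.3 in P2, and was 5.61-fold higher, with 1134 in P3 and 208.5 in P1. It was the 1 member past 2-fold of 27 hypoxia-induced genes, whose median was 0.27.

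Several other genes high on the list have no partner among the groups above. LINC01139, a long non-coding RNA, read 461.8 in P4, against 88.2 in P2, and was 5.24-fold higher. MEIOB, a meiotic recombination protein, read 222.1 in P4, against 49.2 in P2, and was 4.52-fold higher. ATP8B3, a testis-expressed phospholipid flippase, read 205.7 in P4, against 45.8 in P2, and was 4.50-fold higher. ATP8B3 had P3 (202.3) with P4 and P1 (under the limit) with P2. It was the 1 member past 2-fold upward on the germline and cancer-testis list. On that list 5 of 8 detected genes were above 0 and 3 below, with a median of 0.38. DAZL, the 1 member past 2-fold downward, read 108.9 in P4, against 258.1 in P2. Its brighter probe gave -1.24 and its second probe -1.35. Across the 11763 genes the shares past 2-fold were 2.34% upward and 0.791% downward. LAMP5, a neuronal lysosome-associated protein, read 291.0 in P4 and was under the limit in P2, at least 7.57-fold higher. CEACAM1, an adhesion molecule, read 237.7 in P4, against 65.7 in P2, and was 3.62-fold higher.

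DNA replication genes were slightly but widely lower in P4. Of 49 detected members 44 were below 0, with a median of -0.22, and none was 2-fold different in either direction. The full set of 11763 genes had 6152 below 0, with 0.791% past 2-fold downward and 2.34% upward. MCM2, a subunit of the replicative helicase, read 1384 in P4, against 2197 in P2, and was 1.59-fold lower. GINS4, another helicase component, read 721.4 in P4, against 1218 in P2, and RRM2, the S-phase subunit of ribonucleotide reductase, read 367.8 in P4, against 582.8 in P2. In P3 minus P1 the list had a median of -0.04. Genes of mitosis and the spindle centred on -0.05, and TPX2 was the 1 member of 48 past 2-fold. UHRF1, the partner of maintenance methylation, read 2250.5 in P4, against 3726 in P2. Replication-dependent histone genes, which the probes may not tell apart, had a median of -0.24 over 21 detected members. H2BC9 and H4C5 were 2.43-fold and at least 2.07-fold lower, and H2AC6 was 3.48-fold higher at 148.6 in P4, against 42.7 in P2.

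Small nucleolar RNAs, the guides of ribosomal RNA modification, were the lists with the lowest medians. Of 55 detected box C/D members 50 were below 0, with a median of -0.58, and 7 were at least 2-fold lower. Among all 11763 detected genes 6152 were below 0 and 0.791% at least 2-fold lower. SNORD57 read 44.9 in P4, against 139.1 in P2, and was 3.10-fold lower. SNORD49A read 74.5 in P4, against 201.5 in P2, and was 2.71-fold lower. Of 52 box H/ACA members 44 were below 0, with a median of -0.34, and SNORA8 (177.8 in P4, against 413.6 in P2) and SNORA13 (47.5 in P4, against 100.2 in P2) were the 2 past 2-fold. These RNAs lie in introns of other genes, and whether the probes read the mature RNA or its host transcript was not tested. The P3 minus P1 medians were -0.14 and 0.06. In that pair 8 of 57 detected box C/D members were at least 2-fold lower in P3 and 1 was at least 2-fold higher. For box H/ACA these counts were 2 and 1 of 55. Over all genes the shares were 1.6% lower and 1.95% higher. Ribosomal protein genes and genes of oxidative phosphorylation had medians of 0.02 and 0.02, with 66 and 70 detected members and none past 2-fold.

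The lowest genes in P4 were of mixed kind. CUZD1, a secreted protein of pancreas and uterus, read 41.7 in P4, against 561.7 in P2, and was 13.5-fold lower, a value that rests on a P4 reading just above the limit. P3 and P1 read 315.8 and 350.0, so P4 stood apart. SOX21, a SOX factor that counteracts SOX2 and marks early neural differentiation, read 319.2 in P4, against 2366 in P2, and was 7.41-fold lower. P3 read 891.2 and P1 733.3, both between the readings of P4 and P2. TEK, the angiopoietin receptor of blood vessels, read 84.6 in P4, against 318.9 in P2, and was 3.77-fold lower, and its second probe gave -1.47 beside -1.91. TEK read 109.5 in P3, against 475.8 in P1, so both later arrays lay under both earlier ones. CHODL, a C-type lectin of motor neurons, was under the limit in P4 and read 223.7 in P2, at least 5.82-fold lower, with 87.8 in P3 and 46.5 in P1. RLN2, the hormone relaxin, was under the limit in P4 alone and read 183.9 in P2, at least 4.79-fold lower. RGPD1, a member of a family of near-identical nucleoporin copies, was under the limit in P4 and read 170.2 in P2, at least 4.43-fold lower. PKDCC, a secreted tyrosine kinase, read 252.8 in P4, against 754.5 in P2, and was 2.98-fold lower. Its second probe gave a larger difference of -2.00.

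On chromosome 3 the window of 15 neighbouring detected genes from EIF4E3 to PROS1 had the lowest median, -0.72. In it 4 genes were at least 2-fold lower, against 0.791% of all genes. They were RYBP, a subunit of Polycomb repressive complex 1 (454.8 in P4, against 1035 in P2), EBLN2, a gene of viral origin (293.6 in P4, against 914.2 in P2), FAM86DP, a pseudogene (65.7 in P4, against 139.0 in P2), and PDZRN3, a ubiquitin ligase, under the limit in P4, against 93.7 in P2. RYBP and EBLN2 read 889.9 and 765.3 in P3 and 1047 and 879.6 in P1, so P4 was the low array for both. Others among the lowest 15 were OXCT2, a testis ketone-body enzyme (3.56-fold lower), PAPLN, a matrix protein (3.34-fold lower), and TM4SF18, a tetraspanin-like membrane protein (3.15-fold lower). GNAL, an olfactory G protein subunit, was 2.63-fold lower. DNMT3A, the second de novo DNA methyltransferase, read 47.5 in P4, against 120.1 in P2, but a second probe of the gene read higher in P4, and the median of its detected probes gave -0.51.

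How firmly single genes can be read depends on their probes. Of the 275 higher genes 182 were read by a single probe. A further 53 had more than 1 detected probe, and the extra reading had the same sign for 51 and reached 1.5-fold for 40. Of the 93 lower genes 58 were read by a single probe, and the extra reading of 19 had the same sign for 16. Genes that were dim on their brighter array were over the fold threshold more often. Of the 2941 dimmest genes, which read at most 139.8 on their brighter array, 3.03% stood at least 2-fold higher in P4, and 1.09% as much lower. Of the 2941 brightest, which read at least 1323, the shares were 1.02% and 0.238%. The arrays themselves were alike, with 11426 genes at or above the limit on P4 and 11322 on P2.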

How the data were processed

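Total RNA of H9 cells from 4 passage groups was labelled with biotin and hybridised to Illumina bead arrays, 1 array per group. The deposited values are linear probe intensity values for 47323 probes per array. From the values themselves, the authors' intensities had been background-subtracted (25.2% to 25.4% of probes lie below 0) and brought to a near-common distribution (deposited array medians of 17.4 to 17.5). The method is not given in the sources used here, and with distributions matched in this way, a difference in total RNA between passages would not show.

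The 4 arrays were quantile normalized with numpy 2.4.6 and pandas 2.3.3 in Python 3.11.15. The floor and detection limit was the 60th percentile of an array, 38.4 intensity units. Values were floored, log2 transformed and subtracted, P4 minus P2. For a gene with several probes, the one with the highest mean over the arrays was used. In the platform annotation 30113 probes carry 1 gene symbol, 8 carry several and 17202 are not listed; 30074 matched a current RefSeq entry. Genes on Y and those of the X-inactivation centre were left out. Gene order and promoter sequences came from RefSeq tables of GRCh38.p14.

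A gene counted as different at 2-fold; with 1 array per group no test was run. The calculation was tested on simulated data. Named genes were the 15 highest and 15 lowest above the limit on both arrays, the 8 largest bounds each way, up to 5 members with the largest difference per list, and 10 genes always named (POU5F1, NANOG, SOX2, LIN28A, BCL2L1, TPX2, ID1, DNMT3B, CDKN1A and NNAT), from which the text draws. List members near 0, and genes named by position or pattern, were picked with their values in view. The comparison and the 48 gene lists were chosen with earlier results of these data known. Alternatives were tried for the floor, an offset, the normalization, the probe rule and the detection rule.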

Additional observations from a re-analysis of the deposited data

Results flagged for a closer look

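Signal was also present in probes that the annotation does not name and that entered no count above. Of 17202 such probes 4421 reached the limit on P4 or P2. Among them 50 (1.13%) were at least 2-fold higher in P4 and 37 (0.837%) at least 2-fold lower. The furthest of those above the limit on both arrays read 440.1 in P4, against 49.3 in P2, with 41.7 in P3 and 348.4 in P1. These shares describe 1 array per group and have no control sample beside them.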

How the results depend on the processing

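The counts depended on how dim values were treated. At least 2-fold higher were 440 genes, and lower 194, when the floor was set at the 50th percentile; the counts were 91 and 25 at the 75th percentile and 153 and 41 when an offset of 50 replaced the floor. On chromosome X the count, an alternative added after the data were seen, was 23 (7.21%, against 0.862% of other genes) with the 75th percentile and 25 (5.77%, against 1.13%) with the offset. The metallothionein median was 3.16 at the 75th percentile and 3.43 over genes above the limit on both arrays, and the interferon-stimulated median was 0.39 at the 75th percentile. The germline median turned to -0.31 at the 75th percentile and -0.073 over genes on both arrays, against 0.38, and the mesoderm median to -0.030 on both arrays, against 0.28; these lists have few detected members. Counts and list medians stayed within 1.5-fold or 0.2 log2 units with the deposited values, with centring, with quantile normalization of P4 and P2 alone and with the median over detected probes. Of 96 named 2-fold genes 40 of the 67 still detected stayed 2-fold at the 75th percentile, 70 with the offset and 92 with the median probe. The share of 2-fold genes on the higher side ran from 69.4% to 78.9%. No paired analysis was possible because each group has 1 array, and leaving out an array would leave no comparison. The number of arrays limits the precision of every value.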
